A study of Mus musculus with 4 samples.

Results

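Transcripts of the immunoglobulin chain genes were followed on 4 one-colour Agilent arrays, each of a cell population that was sorted from mouse marrow. The members were all non-control probes of the array whose gene name in the deposited spot files begins with Igh, Igk, Igl or Igj. The DNA-binding protein gene Ighmbp2, the surrogate light chain gene Igll1 and the Iglon family were left out. The rule found 21 probes of 17 genes, among 29147 named genes on the array. By name these are 1 joining chain gene (Igj, now Jchain), 1 heavy chain constant gene (Igh-6, now Ighm), 5 heavy chain variable genes, 8 kappa variable genes and 2 heavy chain names that do not state their segment (Igh and Ighg). No probe named for a kappa constant gene or for a lambda gene was found, and those chains were not analysed here. Of the 17 genes, 14 had a RefSeq symbol, and Ighv1-2 and Igkv15-97 are variable segment pseudogenes in RefSeq.

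All mice were C57BL6/J and 7 weeks old per the labels, which give no sex. LSK cells are the marrow fraction without lineage markers that carries Sca-1 and c-kit, where stem cells of the blood and their first progeny are found. The second sort, named CD45-negative or stromal, was taken as the cells of the stem cell niche. Day 0 cells of both sorts came from healthy mice. Day 10 cells came from mice of the CD45.1 form that had received 700 cGy of radiation and then a tail vein transplant of 30000 LSK cells from CD45.2 donors. The labels call the stromal sort CD45.1-negative in 1 place and CD45-negative in others, so it is not settled which form of the antigen was gated out. The series asked which genes the niche cells express while the stem cells proliferate. Each sort and day had 1 array, so no difference here has a test or an error from replicates, and every value compares a pair of arrays. The labels do not say how many mice each RNA sample came from.

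An antibody is built from paired heavy and light chains. Each chain joins a variable part, assembled in B cells by cutting and rejoining gene segments, to a constant part that sets the class (mu for IgM, gamma for IgG, alpha for IgA). The cut is made at a recombination signal beside each segment, a heptamer and a nonamer separated by a spacer, and after joining the flank of the variable segment is lost from the chain. The joining chain links the units of secreted IgM and IgA. Plasma cells, many of which live in the bone marrow, carry immunoglobulin messages at very high levels, and stem cells have not assembled these genes.

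The deposited spot files give the 60 bases of each probe, and these letters bear on what a member can report. The probes below were chosen because the results turn on what they bind. In the heavy chain group, 2 probes carry the bare name Igh:
Igh, domain probe: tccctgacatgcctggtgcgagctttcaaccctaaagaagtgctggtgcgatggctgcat
Igh, tail probe: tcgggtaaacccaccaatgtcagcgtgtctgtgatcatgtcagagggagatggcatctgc
From general knowledge of antibody sequences, both read as the constant part of the alpha heavy chain of IgA, one within a constant domain and the other in the tail of the secreted form. No reference sequence of that gene was used. The probe named Igh-6, after the constant gene of IgM, and the gamma probe of Ighg were:
Igh-6: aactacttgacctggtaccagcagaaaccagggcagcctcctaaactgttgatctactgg
Ighg, gamma probe: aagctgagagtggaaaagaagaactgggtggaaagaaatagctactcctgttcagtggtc
The letters of the Igh-6 probe read as a kappa light chain variable segment. Its longest run shared with a probe described as kappa was 16 bases, against 11 bases with a probe described as heavy chain. Such runs do not decide the kind of chain, as Igk-V8-16, a kappa name, shared 8 and 9 bases. On the reading of its letters, the Igh-6 probe is described below with the kappa probes, and nothing is said of IgM. The Ighg gamma probe belongs to a record named for the gamma 2A chain, while the other Ighg probe is described as the variable segment IGHV5-17 and is grouped with the heavy variable probes. With probes grouped by their record and letters, the set holds 3 heavy constant, 2 joining chain, 6 heavy variable and 10 kappa variable probes. This grouping was made after the sequences and values were seen. Probes may also bind relatives, so a value given under a segment's name may include other segments. The longest run shared with another probe described as heavy chain was 43 of 60 bases for the Ighg probe of IGHV5-17. It was 30 bases for Igh-VJ558 and 19 for Ighv1-77, and Igk-V21-12 shared 26 bases with a probe described as kappa.

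Some variable segment probes reach the edge of the segment or lie past it. The capitals mark the heptamer CACAGTG, the core ACAAAAAC of the light chain nonamer and the heavy chain nonamer CAGAAACCC:
Igkv1-135, body probe: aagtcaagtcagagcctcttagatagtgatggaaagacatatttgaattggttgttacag
Igkv1-135, edge probe: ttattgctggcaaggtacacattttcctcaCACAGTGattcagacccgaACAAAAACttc
Igk-V21-12: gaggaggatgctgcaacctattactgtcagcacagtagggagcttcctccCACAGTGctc
Igkv12-38: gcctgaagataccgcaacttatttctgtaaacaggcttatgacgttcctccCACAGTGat
Ighv1-66: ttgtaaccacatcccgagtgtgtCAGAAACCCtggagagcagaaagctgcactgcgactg
In the edge probe of Igkv1-135 the heptamer begins at base 31 and the nonamer core at base 50, counted from the 5′ end, with a spacer of 12 bases between them. In Igk-V21-12 and Igkv12-38 the heptamer begins at bases 51 and 52, near the 3′ end of the probe. In Ighv1-66 the heavy chain nonamer begins at base 24 and no heptamer is present, and the probe is read as lying wholly in the flank of the segment. Among all 61307 probes, 0.734% hold the heptamer in this orientation and 0.768% in the other, while the heavy chain nonamer is in 0.0359% and 0.0538%, and the nonamer core is in 0.17% and 0.173%. These are matches of letters in the probes, searched for after the values were seen.

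Levels are log2 of the scanner's processed signal minus the array's 75th percentile, so 0 is that percentile itself. A probe counts as measured where the scanner software called it well above background. Where it was so on 1 array of a pair, the fold is a lower bound, computed against the lowest level called above background on the other array, or the dim probe's own level where that was higher. A saturated spot also gives a bound. Differences of at least 2-fold were counted, which is a size and not a test. Between 47.6% and 56.6% of all probes were above background on the 4 arrays, the lowest level called so lay between -4.24 and -3.15, and 126 to 459 probes were saturated. All 4 arrays were on 1 slide and share 1 scan time per the file headers. Replicate spots within an array, available for 28 to 33 measured probes, had an SD between 0.159 and 0.219.

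Most immunoglobulin probes were higher in LSK cells of healthy mice and in CD45-negative cells of transplanted mice than on the other arrays. In LSK cells 10 of the 11 members above background on both arrays were at least 2-fold lower at day 10 than at day 0, where 2.72% of all genes so compared were. In CD45-negative cells 10 of 10 such members were at least 2-fold higher, against 24.1% of all genes. The joining chain gene had the largest measured difference among the members in both sorts, 24.8-fold lower in one and 78.7-fold higher in the other. Of the 21 probes, 18 were above background in LSK cells at day 0 and 14 at day 10. In CD45-negative cells 13 were above background at day 0 and 19 at day 10. The Ighg gamma probe and Igkv15-97 were not above background on any array, and 12 probes were above it on all 4. In 11 of these 12, LSK day 0 and CD45-negative day 10 both lay above LSK day 10 and CD45-negative day 0, and Ighv1-66 was the exception. The share of all probes with this order is not given here, so that count has no background beside it. In sorted bulk samples such as these, fewer cells of a type and less RNA per cell cannot be told apart.

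**Figure D1:**
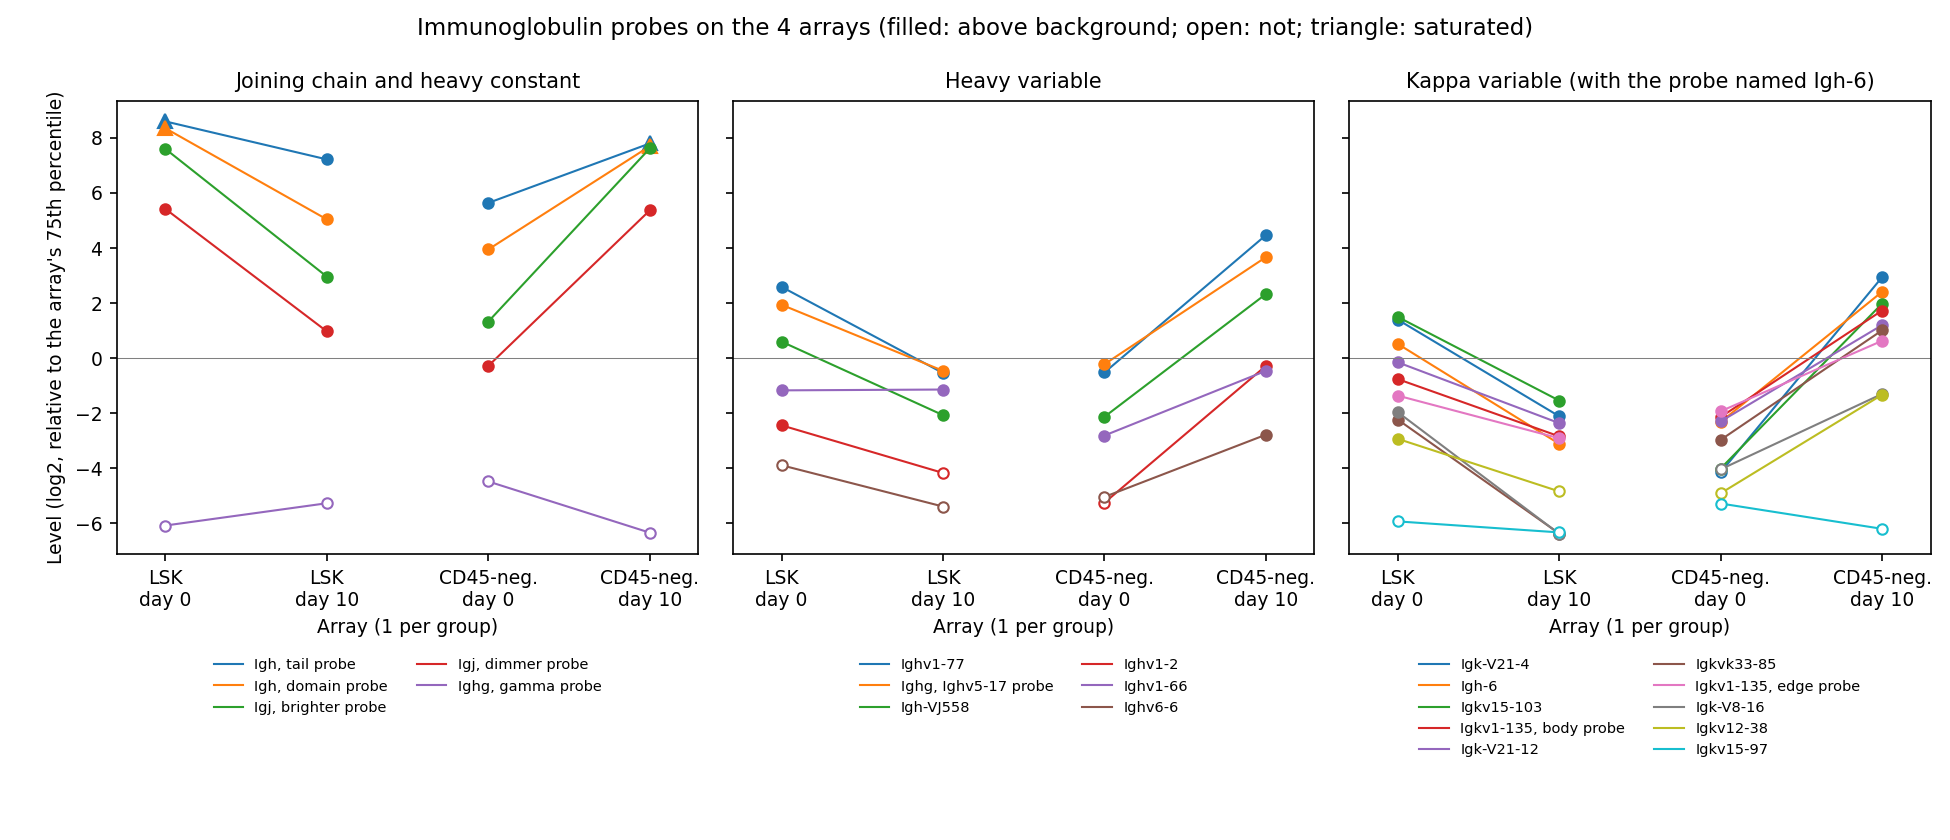
Level of each immunoglobulin probe (log2, relative to the array's 75th percentile) on the 4 arrays, 1 per group, with lines joining the days of a sort; filled symbols are above background, open symbols are not, and triangles are saturated. Igj stood at 7.60 and 2.96 on the LSK arrays and at 1.33 and 7.62 on the CD45-negative arrays, and most other filled probes share that shape, with Ighv1-66 level between the LSK arrays at -1.17 and -1.14.

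Igj encodes the joining chain and was measured by 2 probes. The brighter probe stood at 7.60 in LSK cells at day 0 and 2.96 at day 10, and at 1.33 and 7.62 in CD45-negative cells. The dimmer probe stood at 5.42, 0.97, -0.28 and 5.37 on the same arrays. Both probes were far higher on LSK day 0 and CD45-negative day 10 than on the other arrays, and all 8 values were above background. In LSK cells the brighter probe was lower at day 10 by 4.63 on the log2 scale and the dimmer one by 4.45, which is 21.9-fold. In CD45-negative cells they were higher by 6.30 and 5.64. By size the brighter probe ranked 2 of 16043 genes among the lower differences in LSK cells and 5 of 14141 among the higher ones in CD45-negative cells.

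The alpha chain constant probes named Igh were above background on every array, and both were saturated on LSK day 0 and CD45-negative day 10. The domain probe stood at 8.35, 5.04, 3.95 and 7.70 on LSK day 0, LSK day 10, CD45-negative day 0 and CD45-negative day 10. The tail probe stood at 8.60, 7.22, 5.64 and 7.80. Because the high arrays were saturated, both sets of differences are bounds. In LSK cells the domain probe was at least 9.88-fold lower at day 10 and the tail probe at least 2.61-fold lower. In CD45-negative cells they were at least 13.4-fold and at least 4.47-fold higher at day 10. Both probes thus had the same high and low arrays as Igj. Which probe differed more cannot be read from the bounds, because both were saturated on the high arrays. The gamma constant probe read between -6.34 and -4.48 and was not above background on any array. Some probes described as gamma chains under other names were above background, as given under other observations. As background, C57BL/6 mice carry the Ighg2c gene in the place of Ighg2a, and what this probe can bind in these mice was not tested.

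Heavy chain variable segments encode the antigen-binding part of the heavy chain, and 6 probes report them. Ighv1-77, of the large J558 family, stood at 2.59, -0.54, -0.52 and 4.47 on LSK day 0, LSK day 10, CD45-negative day 0 and CD45-negative day 10. It was 8.78-fold lower at day 10 in LSK cells and 31.7-fold higher in CD45-negative cells, and both low arrays lay near each other. Igh-VJ558, a probe for the same family, stood at 0.60, -2.07, -2.13 and 2.33. It was 6.39-fold lower in LSK cells and 22.0-fold higher in CD45-negative cells, or -1.89 and 3.16 on the log2 scale under normexp background correction with an offset of 50. The Ighg probe described as IGHV5-17 stood at 1.94, -0.46, -0.22 and 3.67, and was 5.27-fold lower and 14.8-fold higher. With the gamma probe of the same name averaged in, these differences were -0.79 and 1.01 on the log2 scale. In each of these 3 segments CD45-negative day 10 was the highest array and LSK day 0 the next.

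The remaining heavy variable probes were dim or shaped otherwise. Ighv1-2, a pseudogene, read -2.44 in LSK cells at day 0 and -0.28 in CD45-negative cells at day 10, and was not above background on the other arrays. Its differences are bounds, at least 3.16-fold lower at day 10 in LSK cells and at least 7.33-fold higher in CD45-negative cells. Ighv6-6 was above background only in CD45-negative cells at day 10, at -2.78, and its bound of at least 1.29-fold higher did not reach 2-fold. Ighv1-66, the flank probe printed above, stood at -1.17 and -1.14 in LSK cells, a difference of 0.03, and at -2.81 and -0.46 in CD45-negative cells, which is 5.10-fold higher at day 10. It was the only member measured on both LSK arrays that was not at least 2-fold lower at day 10. Under normexp its difference in CD45-negative cells was 0.74, less than 2-fold.

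Kappa variable segments encode the antigen-binding part of the kappa light chain, and 10 probes report them, with the probe named Igh-6 among these. That probe stood at 0.52, -3.11, -2.32 and 2.41 on LSK day 0, LSK day 10, CD45-negative day 0 and CD45-negative day 10. It was 12.4-fold lower at day 10 in LSK cells and 26.5-fold higher in CD45-negative cells, and in LSK cells its difference was the largest measured among the members after that of Igj. Igk-V21-4, the RefSeq segment Igkv3-4, stood at 1.40, -2.11 and 2.94 on the arrays where it was above background, and at -4.15 in CD45-negative cells at day 0, where it was not. It was 11.4-fold lower in LSK cells and at least 68.3-fold higher in CD45-negative cells. Igkv15-103 stood at 1.5, -1.54 and 1.98, and at -4.01 in CD45-negative cells at day 0, again not above background. It was 8.27-fold lower in LSK cells and higher by at least 5.13 on the log2 scale in CD45-negative cells. For both genes the low CD45-negative array was under the detection limit, so the difference there has only a lower limit. Under normexp these kappa differences were smaller, at -2.07 in LSK cells and 3.23 in CD45-negative cells for the probe named Igh-6, and in LSK cells at -2.43 for Igk-V21-4 and -2.25 for Igkv15-103.

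Igk-V21-12, the RefSeq segment Igkv3-12, stood at -0.15, -2.36, -2.30 and 1.20, and was 4.63-fold lower in LSK cells and 11.3-fold higher in CD45-negative cells at day 10. Igkv1-135 has 2 probes, one in the body of the segment and one across its edge. The body probe stood at -0.76, -2.84, -2.14 and 1.73, and the edge probe at -1.36, -2.91, -1.93 and 0.63. Both were high and low on the same arrays. In LSK cells the body probe was 4.22-fold and the edge probe 2.92-fold lower at day 10, and in CD45-negative cells they were 14.6-fold and 5.90-fold higher. The edge probe, which includes bases past the heptamer, thus had the smaller difference each time. With 1 array a group and 1 such pair of probes in the set, this is a description. Under normexp the differences were -1.45 and 2.18 for Igk-V21-12 and -1.14 and 2.63 for Igkv1-135.

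Igkvk33-85, described as IGKV13-85, read -2.23 in LSK cells at day 0 and was not above background at day 10, a bound of at least 3.65-fold lower. In CD45-negative cells it stood at -2.97 and 1.01, which is 15.7-fold higher at day 10, or 2.09 on the log2 scale under normexp. Igk-V8-16 and Igkv12-38 were above background only on the 2 high arrays. Igk-V8-16 read -1.96 in LSK cells at day 0 and -1.30 in CD45-negative cells at day 10, with bounds of at least 4.41-fold lower and at least 3.61-fold higher. Igkv12-38 read -2.93 and -1.33, with bounds of at least 2.25-fold lower and at least 3.53-fold higher. The pseudogene Igkv15-97 read between -6.33 and -5.28 and was not above background on any array. Of the 10 kappa probes, 6 were measured on both LSK arrays and these 6 were at least 2-fold lower at day 10, while 5 were measured on both CD45-negative arrays and these 5 were at least 2-fold higher. The other kappa differences are bounds, whose direction is set by the array on which the probe was detected.

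Set against all genes, the share of members past 2-fold was high in LSK cells. Because probes may bind relatives, the members counted are not independent readings. There 2.72% of the 16043 genes compared were at least 2-fold lower at day 10, against 10 of 11 members, and the members' median difference was -2.67 against 0.0012 for all genes. With bounds, whose direction detection fixes, 14 of 15 members were at least 2-fold lower, where the share of all genes was 3.59%. In CD45-negative cells the background was larger: 24.1% of 14141 genes were at least 2-fold higher at day 10, against 10 of 10 members, with medians of 3.93 and 0.22. With bounds the counts were 15 of 16 members and 24.7% of genes, Ighv6-6 being the member short of 2-fold. By size, 9 of the 11 members were among the 100 genes with the largest lower differences in LSK cells, and 8 of 10 were among the 100 largest higher ones in CD45-negative cells. Without the saturated Igh probes the medians were -2.86 and 3.98.

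**Figure D2:**
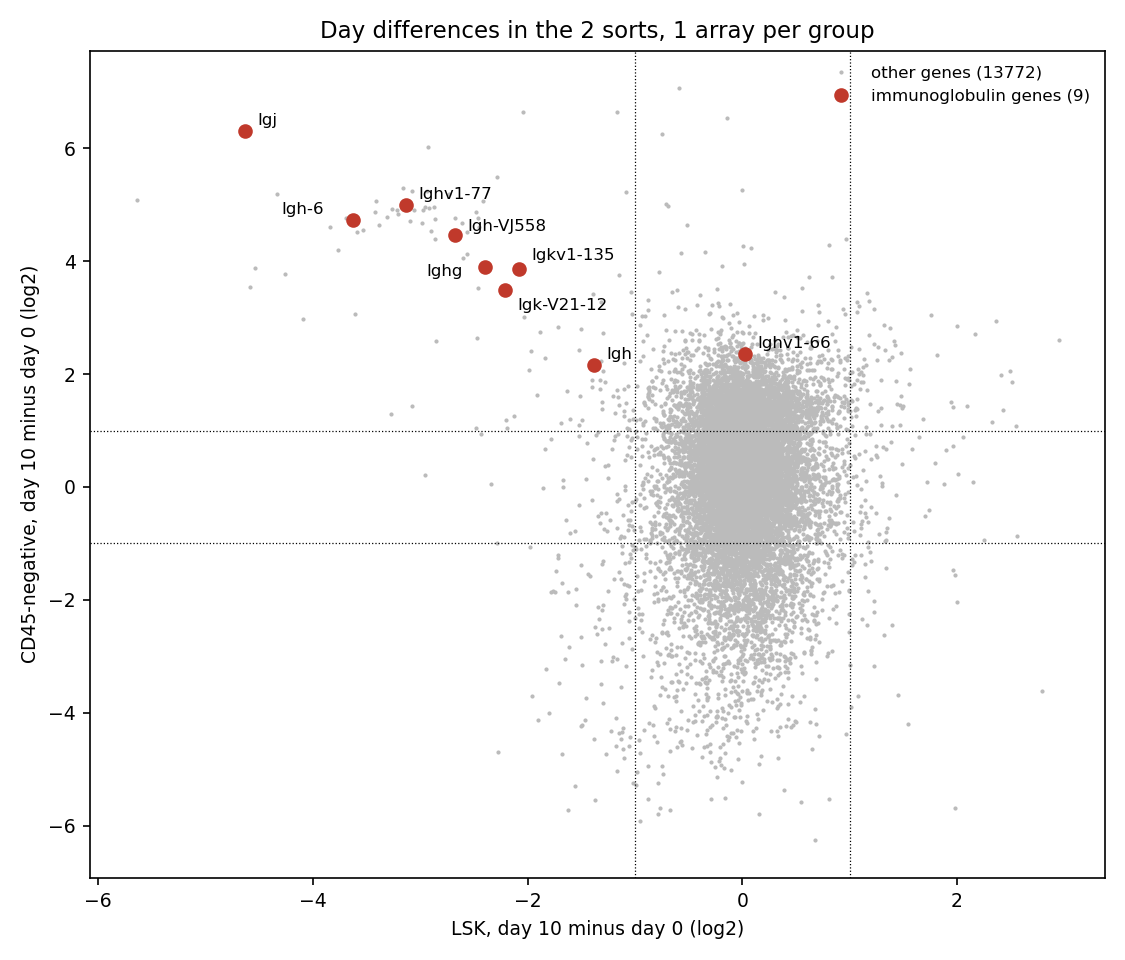
Day 10 minus day 0 in LSK cells (x axis, log2) against the same difference in CD45-negative cells (y axis, log2) for the 13781 genes compared on both arrays of both sorts; red points are the 9 immunoglobulin genes among them and dotted lines mark 2-fold. Igj lies at -4.63 and 6.30, and 8 of the 9 red points lie in the upper left, with Ighv1-66 above the centre at 0.03 and 2.35.

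The day comparisons of the 2 sorts share no array. Of 13781 genes compared in both, 111 were at least 2-fold lower in LSK cells and at least 2-fold higher in CD45-negative cells, which is 0.805%. Among these were 8 of the 9 members compared in both sorts. The exception was Ighv1-66, which was at least 2-fold apart only in CD45-negative cells.

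Between sorts the order of levels turned over with the day. These comparisons use the same 4 arrays as those between days and are not separate evidence. In healthy marrow 9 of 10 members were at least 2-fold higher in LSK cells than in CD45-negative cells, against 22.1% of all genes, with a median difference of 2.44 against 0.10. Igj was 77.3-fold higher in LSK cells at its brighter probe, Ighv1-77 8.63-fold and the probe named Igh-6 7.14-fold. Igkvk33-85, at 1.67-fold, was the member short of 2-fold. The count of 9 was 6 of 10 under normexp and 7 of 10 with the probes of a gene averaged. After transplantation 9 of 11 members were at least 2-fold lower in LSK than in CD45-negative cells, against 12.9% of all genes, with medians of -4.41 and -0.016. The probe named Igh-6 was 45.9-fold lower in LSK cells, Igk-V21-4 33.3-fold and Igj 25.3-fold. The members short of 2-fold were Ighv1-66, at 1.6-fold, and Igh by its tail probe, with a bound of at least 1.5-fold, while its domain probe was at least 6.31-fold lower.

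Among the kappa genes the healthy sorts differed unequally. At day 0 the body probe of Igkv1-135 was 2.59-fold higher in LSK cells and Igk-V21-12 4.43-fold higher, while Igkv15-103 was at least 25.2-fold and Igk-V21-4 at least 23.4-fold higher. In CD45-negative cells at day 0, Igkv1-135 and Igk-V21-12 were thus measurable, and Igkv15-103 and Igk-V21-4 were not. In LSK cells of the same day all 4 genes were above background. Igk-V8-16 and Igkv12-38 were also not above background in CD45-negative cells at day 0, with smaller bounds of at least 2.28-fold and at least 1.16-fold. The probe named Igh-6 was 7.14-fold higher in LSK cells and Igkvk33-85 1.67-fold.

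The arrays with high signal, LSK day 0 and CD45-negative day 10, differed in their balance of members. This comparison was chosen after the values were seen. Igj was nearly level between them, with CD45-negative day 10 minus LSK day 0 at 0.03 for the brighter probe and -0.05 for the dimmer one. The variable segments were higher in CD45-negative cells at day 10, with a median of 1.73 over 5 heavy variable probes and 1.6 over 9 kappa probes. The widest gap was 3.24 for Igkvk33-85, which is 9.43-fold, and the narrowest were 0.47 for Igkv15-103, 0.66 for Igk-V8-16 and 0.71 for Ighv1-66. Both Igh probes were saturated on both arrays and could not be compared. Scaling by spike-in controls moved every probe upward, to 1.39 and 1.32 for the Igj probes and 3.25 for Ighv1-77, so whether Igj was level depends on the scaling. In each setting tried, the 14 variable segment probes measured on both arrays were above 0.

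**Figure D3:**
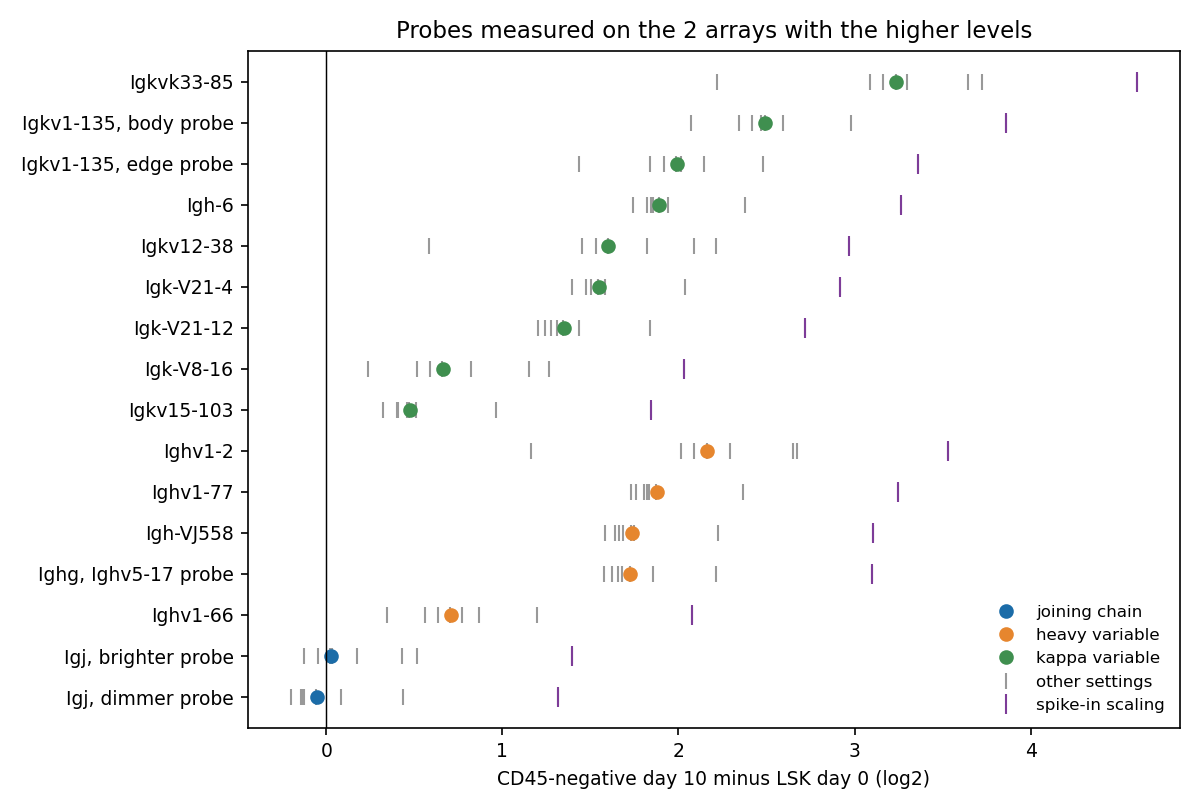
CD45-negative day 10 minus LSK day 0 (x axis, log2) for each immunoglobulin probe measured on both arrays (y axis), coloured by kind of segment; grey ticks are other background corrections, normalizations and scalings, and purple ticks are spike-in scaling. The Igj probes sit at 0.03 and -0.05, and the variable probes range from 0.47 to 3.24.

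The genes that assemble and switch immunoglobulin genes did not share the difference seen in LSK cells. Of 18 enzymes of rearrangement and switching, 17 were compared in LSK cells, none was 2-fold apart and the median was 0.13. In LSK cells 2.72% of all genes were at least 2-fold lower and 1.44% higher, and in CD45-negative cells 17.3% were lower and 24.1% higher, with an all-gene median of 0.22. Dntt, which adds untemplated bases at the joints, stood at 7.53 and 7.71 in LSK cells and 6.02 and 7.58 in CD45-negative cells, the last a saturated value and so a lower limit. In CD45-negative cells 7 of 16 enzymes were at least 2-fold higher, with a median of 0.92, and Rag2, part of the recombinase, had a bound of at least 4.41-fold higher, from below background to -1.01. Polm, a gap-filling polymerase, was 3.07-fold higher and Xrcc4, a partner of the end-joining ligase, 2.73-fold.

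Among genes of the surrogate light chain and of B cell receptor signalling, 1 of 17 compared was at least 2-fold higher in LSK cells at day 10, none was lower, and the median was 0.13. Cd79a, a signalling chain of the B cell receptor, stood at -0.07 and 0.02 in LSK cells and at 0.60 and 2.43 in CD45-negative cells. In CD45-negative cells 15 of 17 were at least 2-fold higher, with a median of 1.61. The widest were Pik3ap1, an adaptor to PI3 kinase, at 9.25-fold, the kinase Blk at 6.95-fold and the kinase Syk at 4.60-fold. Pik3ap1 was also the 1 gene higher in LSK cells, by 2.12-fold. In LSK cells these genes were thus near level where the immunoglobulin chains were lower.

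Transcription factors and coactivators of immunoglobulin genes had a median of 0.19 in LSK cells, where 1 of 17 was at least 2-fold apart. That gene was Pax5, a factor of B cell identity, at -2.94 and -1.43, which is 2.84-fold higher at day 10. In CD45-negative cells 10 of 14 were at least 2-fold higher with a median of 1.42, and 3 more had bounds past 2-fold. Xbp1, the factor of the secretory programme of plasma cells, was 8.23-fold higher, Irf4, which B cells use on the way to plasma cells, 4.82-fold and Spib, an Ets family factor, 4.24-fold.

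Genes that fold, assemble and secrete the chains had a median of -0.18 over 25 genes in LSK cells, with 2 at least 2-fold lower. Derl3, a channel component of endoplasmic reticulum quality control, stood at 2.36 and -0.20 in LSK cells and -1.18 and 2.94 in CD45-negative cells, so it was 5.90-fold lower in one sort and 17.4-fold higher in the other. It was high and low on the same arrays as the immunoglobulin chains. Ell2, an elongation factor for secretory heavy chain message, was 2.08-fold lower in LSK cells and 5.20-fold lower in CD45-negative cells. In CD45-negative cells 12 of 24 genes were at least 2-fold higher, 1 was lower and the median was 1.0. Txndc5, a disulphide isomerase, was 7.96-fold higher, and Fkbp11, a prolyl isomerase of the endoplasmic reticulum, at least 10.3-fold.

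Receptors and carriers of immunoglobulin were mixed in LSK cells, with 2 of 10 higher, 2 lower and a median of 0.06. Fcgr4 and Fcgr1, activating receptors for IgG on myeloid cells, were 5.33-fold and 3.73-fold higher at day 10. Fcer1a, a chain of the IgE receptor, was 4.44-fold lower and Fcrla, an Fc receptor-like protein of B cells, 3.76-fold lower. In CD45-negative cells 6 of 9 were at least 2-fold higher, among them Fcgr4 at 3.97-fold and Fcrla at 3.08-fold, with a median of 1.40. Pigr, which carries IgA and IgM across epithelia, was not above background on any array.

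**Figure D4:**
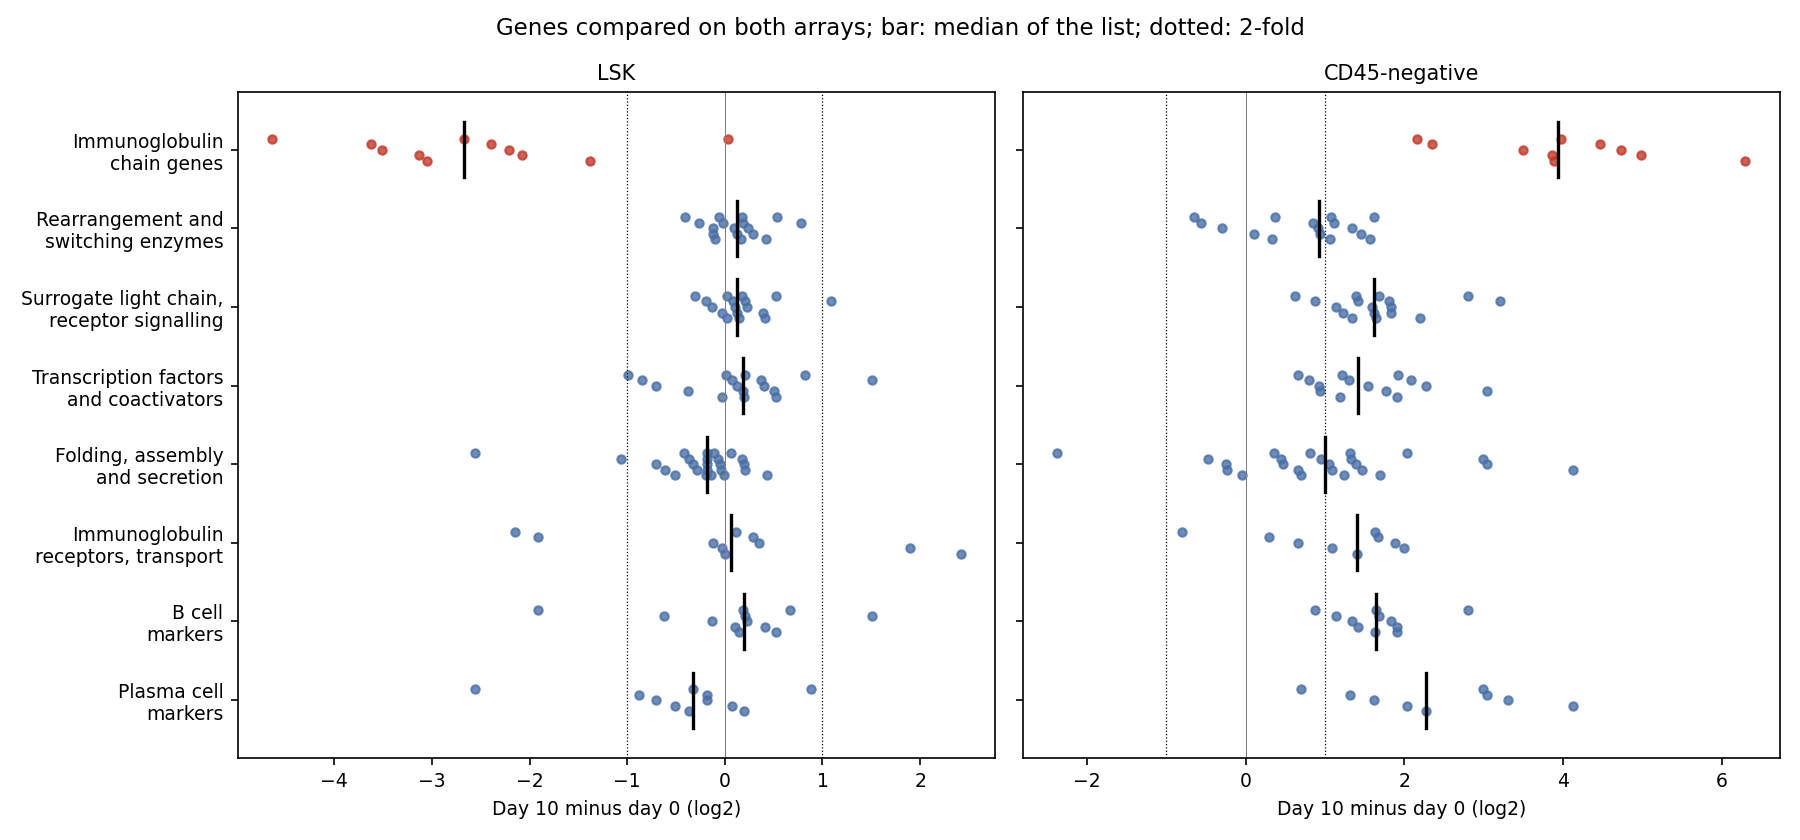
Day 10 minus day 0 (log2) for genes compared on both arrays, in LSK cells (left) and CD45-negative cells (right), for the immunoglobulin chain genes (red) and for related gene lists (blue); bars are medians and dotted lines 2-fold. The immunoglobulin medians are -2.67 and 3.93, while the medians of the lists drawn lie between -0.32 and 0.19 in LSK cells and between 0.92 and 2.27 in CD45-negative cells; T and NK cell markers, at -0.40 and 3.93, and basophil and mast cell markers, at -1.54 and 2.23, are not drawn.

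Markers of mature cells were also present and differed between days. In LSK cells 12 of 12 plasma cell markers were above background at day 0 and 11 at day 10, with their summed level at 69.3 and 53.6 times the array's 75th percentile. The plasma cell receptor Tnfrsf17 went from -0.38 to below background, a bound of at least 13.1-fold lower, while the median of the plasma cell list was -0.32. Of the 11 plasma cell markers compared on both LSK arrays, 1 was at least 2-fold lower and none higher. B cell markers had a median of 0.19 in LSK cells, with 13 and 12 of 15 above background and summed levels of 217 and 243. The mature B cell receptors Cr2 and Fcer2a were not above background in this sort. Basophil and mast cell markers, with summed levels of 278 and 88.6, had a median of -1.54, with 4 of 7 at least 2-fold lower. T and NK cell markers had a median of -0.40, with 3 of 10 at least 2-fold lower and 1 higher. The part of these cells in the LSK result was not tested.

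In CD45-negative cells the summed level of the plasma cell markers was 47.5 at day 0 and 164 at day 10, with 9 and 12 of 12 above background, and their median difference was 2.27. Fkbp11, Prdm1 and Tnfrsf17 were the markers not above background at day 0. B cell markers went from 442 to 668, with 12 and 14 of 15 above background and a median of 1.65, and 10 of the 11 compared were at least 2-fold higher. T and NK cell markers had a median of 3.93, the same as the immunoglobulin genes to 2 decimals, with 6 of 12 above background at day 0 and 11 at day 10, Cd4 being below it on both. Ptprc, the gene of CD45, stood at 3.10 and 5.58 in this sort, so the message of the antigen was present on both days. The summed level of erythroid markers was at least 2268 at day 0, where Alas2, Hba-a1 and Slc4a1 were saturated, and 307 at day 10. The B cell sum at day 10 includes the saturated probes of Vpreb3 and Cd79b and is likewise a lower limit. The summed level of stromal markers went from 117 to 10.8, and the stromal gene Cxcl12 was at 4.40 and 1.25. The part of these cells in the CD45-negative result was not tested.

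The genes of the LSK gate were above background on both LSK arrays, with Kit, the gene of c-kit, at 5.04 and 4.65 and Ly6a, the gene of Sca-1, at 2.98 and 2.86. Of the 7 stem and progenitor sort markers listed, 6 were above background at day 0, Slamf1 being the exception, and 7 at day 10. Of the members' promoters only that of Jchain, on chromosome 5 of GRCm38.p6, was in the RefSeq table used. The octamer ATGCAAAT, searched on both strands, was not in its 300 bases, and 1.74% of 32851 promoters of that length hold it.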

How the data were processed

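The authors scanned 1-colour Agilent mouse arrays and extracted the spots with Agilent Feature Extraction, named in the submitters' processing notes, in version 10.5.1.1 by the file headers. The labels state oligo-dT priming of 500 ng of total RNA and Cy3 labelling. The deposited spot files hold fluorescence intensity values, with background subtracted in the processed signal. Their flags for detection, saturation, outliers and control type are other deposited columns. The deposited series table holds log2 values shifted by the authors, equal to log2 processed signal minus a constant for at least 99.977% of probes within 0.001.

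Control and outlier spots were dropped, spots of a probe averaged and the 75th percentile subtracted. Each gene took its brightest probe over the 4 arrays. Python 3.11.15, pandas 2.3.3, numpy 2.4.6, R 4.3.3 and limma 3.58.1 were used. The 2-fold call was tested on simulated data, with noise below the SD of replicate spots. Every simulated gene counted as above background and unsaturated, so the rules for detection, bounds and saturation were not tested. Alternatives covered background correction, normalization, scaling, filters and probe choice. Joining chain and constant genes were always named, and variable genes by level and by size of difference. Members, lists and this rule were chosen with earlier results of these data known. Some items of the lists are not reported here.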

Additional observations from a re-analysis of the deposited data

Results flagged for a closer look

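Day differences at least 2-fold and opposite in the 2 sorts drew attention to 8 immunoglobulin genes, lower at day 10 in LSK cells and higher in CD45-negative cells. With 1 array a group, the difference between the sorts was not tested. The CD45-negative difference minus the LSK difference was 10.9 log2 units for Igj, 8.36 for the probe named Igh-6, 8.12 for Ighv1-77 and 7.14 for Igh-VJ558. It was 6.29 for Ighg, 5.94 for Igkv1-135 and 5.71 for Igk-V21-12. For Igh it was at least 3.54, since its probes were saturated on the high arrays.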

How the results depend on the processing

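Each group has 1 array, so no array could be left out. No paired analysis was possible because each group holds 1 array and the result comes from no test. Across the 14 alternatives the median over members lay between -2.86 and -1.89 in LSK cells and between 2.90 and 6.77 in CD45-negative cells, and the median of LSK minus CD45-negative lay between 1.45 and 3.91 at day 0 and between -5.86 and -3.53 at day 10. Counts past 2-fold moved by more than 1.5 times with no detection filter, to 16 of 17 for CD45-negative cells at day 10, 15 of 17 for LSK above CD45-negative at day 0 and 14 of 17 for LSK below CD45-negative at day 10, and with bounds included the last was 14 of 16. These settings count more genes. Over the same number of genes, the 9 of 10 for LSK above CD45-negative at day 0 was 6 under normexp and 7 with probes averaged. Ighv1-66 changed sign in LSK cells, to -0.10 under normexp and -0.049 under spike-in scaling, from 0.03. It was 0.74 in CD45-negative cells under normexp. Ighg was -0.79 in LSK cells and 1.01 in CD45-negative cells with its gamma probe averaged in. Spike-in scaling moved all CD45-negative day differences by 2.83, the median shift by 0.46 and housekeeping scaling by -0.37. Cyclic loess and quantile normalization moved them by a median of 0.44 and 0.40 over named probes, unequally from gene to gene. Shifts in LSK cells lay between -0.078 and 0.075. Signal near background limits the dim variable segments, and saturation limits Igh.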

Other observations

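Antibody chains also appear on the array under clone, predicted or transcript names, which the naming rule leaves out. These probes were collected after the values were seen, by words of their descriptions. They number 61, none is described as lambda, 23 were above background on all 4 arrays and 9 on none. In LSK cells 30 of 33 measured probes were at least 2-fold lower at day 10, against 2.72% of all genes, and none was higher. Their median was -2.98 and their range from -5.64 to -0.48. In CD45-negative cells 25 of 26 were at least 2-fold higher, against 24.1% of all genes, and none was lower. Their median was 4.45 and their range from 0.36 to 5.25. In all 23 probes above background on the 4 arrays, LSK day 0 and CD45-negative day 10 both lay above the other arrays. Not all of the remaining probes had that order. The share of all probes with that order is not given here, so this count too has no background beside it. The widest LSK difference, -5.64, was at a probe described as the kappa segment IGKV12-41. It stood at 2.61 and -3.03 in LSK cells and at -1.03 and 4.05 in CD45-negative cells. Probes described as gamma chains were mixed. A probe described as similar to gamma-2a heavy chain stood at 4.01 and 0.4 in LSK cells and at 2.09 and 5.15 in CD45-negative cells. Another of that name stood at 0.38 and -2.82, and at -1.47 and 2.15. A probe described as Ighg lay between -1.04 and -0.18. Some other gamma probes, among them another gamma-2a record, were not above background on any array. Others were above it on only some arrays. A probe described as similar to a rearranged gamma chain read -2.07 on LSK day 0 and -0.21 on CD45-negative day 10. Another of that description was above background only on CD45-negative day 10, at -2.59. A gamma-1 probe was so only on LSK day 0, at -3.53. What part of the chain each binds was not tested. Of the 111 genes lower in LSK cells and higher in CD45-negative cells, 22 carry such descriptions, beside the 8 members. These 22 are of 23 genes so described that were compared in both sorts, while the 111 are 0.805% of all genes so compared.

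Other genes among the 111 are known from plasma cells, T cells and basophils, and were picked out after their values were seen. Bhlha15, a factor of secretory cells, was at -1.02 in LSK cells and 3.07 in CD45-negative cells. It is not in the list of plasma cell markers, of which 1 of 11 compared in LSK cells was at least 2-fold lower. Slamf7 and Xbp1 of that list were at 0.89 and 0.20 in LSK cells. Cd3d, a chain of the T cell receptor complex, was at -2.04 and 6.64, but 3 of 10 T and NK cell markers compared in LSK cells were at least 2-fold lower, and Gzma was 3.86-fold higher and Thy1 level. The basophil proteases Prss34 and Mcpt8 were at -1.89 and 2.74 and at -1.97 and 2.40, while Cpa3 at -0.70, Hdc at -0.64 and Ms4a2 at 0.12 were not 2-fold apart in LSK cells.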
